A study of Rattus norvegicus with 18 samples.

Results

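Toll-like receptor and HMGB1 signaling was followed in the rat dorsal hippocampus through 10 genes. They were the receptors Tlr2, Tlr3, Tlr4 and Tlr7, the co-receptor Cd14, the adaptor Myd88, the kinase Irak1, the ligand Hmgb1, the cytokine Il1b and its receptor Il1r1. They were taken by symbol from the 38445 genes of the count tables, and the rule uses no measured value, but the list was drawn up with earlier results of these data known. Of the 10, 9 passed the filter on low values and were tested among 17853 genes, and Il1b did not pass. RNA was sequenced from 18 adult male Sprague Dawley rats, which were 75 to 85 days old when obtained and older when taken, with 6 rats in each of 3 groups. All rats received the Lieber-DeCarli liquid diet. Control rats had it without ethanol, and both ethanol groups first had 7 days of rising ethanol. After that, chronic ethanol rats drank 9% ethanol through 16 days and were taken with no withdrawal, and withdrawal rats had 15 days of 9% ethanol followed by 24 h on control diet. The read pairs counted on genes numbered 30873228 to 42679748 per rat.

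Toll-like receptors recognise molecules of microbes and of damaged cells, and in brain they are best known from microglia. TLR2 and TLR4 sit at the cell surface, where CD14 hands lipopolysaccharide to TLR4, and TLR3 and TLR7 bind RNA inside endosomes. All of these but TLR3, and the IL-1 receptor as well, pass their signal to the adaptor MyD88 and to IRAK kinases, which leads to NF-kappaB and to cytokines such as IL-1 beta. HMGB1 is an abundant nuclear protein that acts on TLR4 and other receptors once it has left the cell.

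None of the 9 tested genes was DE in any of the 3 comparisons (q < 0.1, limma-voom with 3 surrogate variables), and no gene of the 10 had rats of one group all above or all below the rats of another. Between withdrawal and control, 5.41% of all genes tested were DE (965 genes). With 1 rat left out this background ranged from 23 genes (without withdrawal rat 6) to 1911 genes (without withdrawal rat 2), and without surrogate variables it was 41 genes. With the quasi-likelihood test of edgeR and the same surrogate variables the number of the 9 genes called was also 0 in each comparison, and with DESeq2 it was 1 in each, Il1r1 between withdrawal and control and Irak1 in the other two. Between ethanol and control the background was 0.493% and between withdrawal and ethanol 2.72%. These backgrounds moved with single rats, from 0 (without control rat 4) to 258 genes between ethanol and control and from 0 (without ethanol rat 2 or 3 or withdrawal rat 6) to 1800 genes between withdrawal and ethanol when 1 rat was left out, and with the replicate block and 3 surrogate variables they were 33 genes and 1 gene. At an unadjusted p under 0.05, 3 of 9 genes differed between withdrawal and control (background 19.7%), namely Il1r1, Myd88 and Cd14, all with higher fitted values in withdrawal. Irak1 alone differed at that level between ethanol and control (background 12.5%), and Irak1 and Il1r1 did so between withdrawal and ethanol (background 16.7%). The median log2 fold change of the 9 genes was 0.02, 0.05 and 0.16 in the 3 comparisons, and that of all genes was 0.00 in each. Two-sided exact permutation tests on log2 CPM, over 924 splits of 12 rats with 0.00216 as the smallest possible p, gave a p under 0.05 in 3 of 30 tests before any adjustment. That was 1 of 10 genes in each comparison, against 12.8%, 13.5% and 14.3% of all genes tested (withdrawal with control, ethanol with control, withdrawal with ethanol). Groups not overlapping were found for 1.06%, 1.32% and 1.22% of all genes tested in the comparisons of withdrawal with control, ethanol with control and withdrawal with ethanol.

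Per base of exon, Irak1 and Hmgb1 were far above the other 8 genes. In control rats Irak1 was the highest at 45.3 ± 2.23 RPKM (SD, n = 6), followed by Hmgb1 at 17.1 ± 1.74 RPKM. Myd88 (2.26 ± 0.105 RPKM), Tlr3 (2.01 ± 0.236 RPKM) and Il1r1 (1.58 ± 0.139 RPKM) came next. Neighbours among these 3 genes overlapped in their ranges, whereas Irak1, Hmgb1 and Myd88 did not overlap one another. Tlr2 (1.09 ± 0.218 RPKM), Tlr7 (0.895 ± 0.123 RPKM), Cd14 (0.869 ± 0.164 RPKM) and Tlr4 (0.697 ± 0.144 RPKM) formed a lower tier in which each neighbour overlapped the next. Il1r1 lay above Tlr2 without overlap, and Tlr4 above Il1b. Il1b had the lowest level, 0.172 ± 0.0623 RPKM, so that the mean of Irak1 was 264 times that of Il1b. These are levels of RNA in bulk tissue, in which fewer cells of a type and less RNA per cell cannot be told apart.

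**Figure D1:**
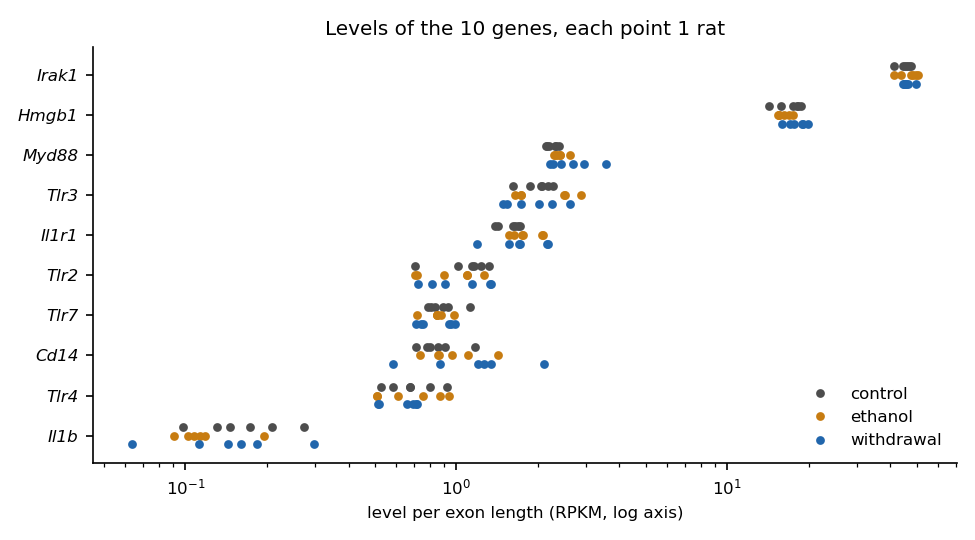
Level of each of the 10 genes per exon length (RPKM, log axis), with 1 point for each of the 18 rats and a row of points for each group (control, ethanol, withdrawal). Irak1 lies between 41.2 and 50.5 RPKM and Hmgb1 between 14.2 and 19.8 RPKM in all rats, above the other 8 genes, and Il1b lies lowest, between 0.0637 and 0.297 RPKM.

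Microglial markers were present in all groups. Their summed level (10 genes) lay between 316 and 382 CPM in control rats, between 324 and 362 CPM in ethanol rats and between 300 and 380 CPM in withdrawal rats (CPM, counts scaled to the library size by the TMM method), and its exact permutation p was at least 0.877 in the 3 comparisons. Among these markers 1 of 10, C1qb, was DE between withdrawal and control (against 5.41% of all genes) and between withdrawal and ethanol (against 2.72%). It was higher in withdrawal than in control (log2 fold change 0.38, limma-voom q = 0.0198, SE 0.069) and than in ethanol (0.35, q = 0.0475). All 5 neutrophil markers had group means below 0.5 CPM. The 5 choroid plexus markers summed to between 1064 and 2227 CPM in control rats. In ethanol rats they spanned 1398 to 5233 CPM, and in withdrawal rats 27.5 to 5241 CPM. Withdrawal rats 4 and 5 were at 27.5 and 28.2 CPM, and withdrawal rat 6 was the highest rat.

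Of the 10 genes, 3 have a match to a searched motif in the 250 bases before and 50 after their RefSeq start (assembly GRCr8). The motifs were the kappaB consensus, which NF-kappaB binds, TTCNNNGAA, the palindrome bound by STAT factors, and GAGGAAGT, bound by the myeloid factor PU.1, each on both strands. The stretches are shown because they are the upstream sequences of 1 receptor, the shared adaptor and the cytokine receptor, with the matches in capitals, 100 bases each.
Tlr2, chr2:171504708-171504807, minus strand: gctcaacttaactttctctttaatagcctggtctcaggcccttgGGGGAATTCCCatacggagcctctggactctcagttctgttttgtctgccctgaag
Myd88, chr8:127956231-127956330, minus strand: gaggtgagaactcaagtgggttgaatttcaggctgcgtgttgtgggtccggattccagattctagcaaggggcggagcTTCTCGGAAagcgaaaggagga
Il1r1, chr9:50034213-50034312, plus strand: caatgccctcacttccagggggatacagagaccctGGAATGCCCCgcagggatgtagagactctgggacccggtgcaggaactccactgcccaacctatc
The capitals mark overlapping kappaB matches between 206 and 196 bases before the start in Tlr2, a STAT palindrome between 22 and 14 bases before the start in Myd88, and a kappaB match on the opposite strand between 135 and 126 bases before the start in Il1r1. Of 27457 rat promoters of this length, 4.16% hold the kappaB consensus, 8.68% the STAT palindrome and 2.44% the PU.1 sequence, which none of the 10 genes holds. A match describes the letters of the window only.

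Of the surface receptors, neither Tlr2 nor Tlr4 was DE. Tlr2 (gene ID 310553, chromosome 2, 182840171 to 182846061, Rnor_6.0) ran from 2.66 to 5.02 CPM in control rats with a median of 4.36 CPM, from 2.67 to 4.80 CPM in ethanol rats (median 3.78 CPM) and from 2.73 to 5.11 CPM in withdrawal rats (median 3.88 CPM). The 3 groups overlapped over nearly their whole ranges, and their lowest rats were nearly equal. The log2 fold change of Tlr2 between withdrawal and control was -0.07 (95% interval -0.47 to 0.33, q = 0.868 by limma-voom).

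Tlr4 (gene ID 29260, chromosome 5, 82587424 to 82601056) is the receptor of lipopolysaccharide and of extracellular HMGB1. It had 53 to 122 counts per rat, the fewest of the 4 Toll-like receptors among the 10 genes. Its lowest, median and highest levels were 1.76, 2.25 and 3.09 CPM in control rats, 1.70, 2.28 and 3.15 CPM in ethanol rats, and 1.72, 2.25 and 2.40 CPM in withdrawal rats. The medians were almost equal, and the withdrawal rats lay within the range of the ethanol rats. Its log2 fold change for withdrawal vs control was -0.10 (95% interval -0.45 to 0.26, q = 0.795 by limma-voom) and for ethanol vs control 0.07 (-0.31 to 0.44, q = 0.919).

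Cd14 (gene ID 60350, chromosome 18, 29560341 to 29562290), the lipopolysaccharide co-receptor, had the largest fitted difference of the 9 genes between withdrawal and control, and within withdrawal the widest relative spread of the 9. It ran from 1.32 to 2.18 CPM in control rats (median 1.53 CPM), from 1.36 to 2.64 CPM in ethanol rats (median 1.70 CPM) and from 1.09 to 3.90 CPM in withdrawal rats (median 2.29 CPM). In withdrawal, 4 of 6 rats lay above every control rat and rat 4 lay below every control rat. The mean was 2.28 ± 0.953 CPM in withdrawal against 1.62 ± 0.304 CPM in control (SD, n = 6). The log2 fold change was 0.48 (SE 0.21, 95% interval 0.05 to 0.92), which did not pass the threshold (p = 0.0325, q = 0.208 by limma-voom, exact permutation p = 0.156 on log2 CPM). Withdrawal rat 1 was the highest of all rats, and without it the withdrawal mean was 1.96 ± 0.589 CPM and the log2 fold change against control 0.34 (q = 0.403 by limma-voom). With 5 surrogate variables the log2 fold change was 0.19 (q = 0.779 by limma-voom), the lowest of the settings tried.

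The endosomal receptors Tlr3 and Tlr7 were not DE either. Tlr7 (gene ID 317468, chromosome X, 28486836 to 28513004), which binds single-stranded RNA, ran from 5.90 to 8.42 CPM in control rats (median 6.45 CPM), from 5.38 to 7.35 CPM in ethanol rats (median 6.37 CPM) and from 5.33 to 7.42 CPM in withdrawal rats (median 6.32 CPM). The medians were close and control rat 1 was the highest of all rats. The log2 fold change of Tlr7 was -0.06 between withdrawal and control, with an interval of -0.29 to 0.18 (q = 0.821 by limma-voom).

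Tlr3 (gene ID 364594, chromosome 16, 50016466 to 50031011) senses double-stranded RNA and signals without MyD88. It ran from 6.99 to 9.84 CPM in control rats (median 8.92 CPM), from 7.11 to 12.5 CPM in ethanol rats (median 9.17 CPM) and from 6.41 to 11.3 CPM in withdrawal rats (median 8.10 CPM). Of the ethanol rats, 3 lay above every control rat and the other 3 near the lower end of the control range, and all 3 groups overlapped. Its fitted change between ethanol and control was -0.17 (95% interval -0.37 to 0.04, q = 0.519 by limma-voom), although the mean was higher in ethanol, 9.39 ± 2.30 against 8.70 ± 1.02 CPM (SD, n = 6). Without surrogate variables that log2 fold change was 0.09 (q = 0.866), and no direction can be given for this gene. The 4 rats with the highest Tlr3, ethanol rats 1, 4 and 6 and withdrawal rat 6, were the same 4 rats that had the highest choroid plexus markers, between 3506 and 5241 CPM.

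The adaptor Myd88 (gene ID 301059, chromosome 8, 128022512 to 128027462) was among the steadiest of the genes in control and ethanol rats and spread out in withdrawal. Its lowest, median and highest levels were 5.38, 5.64 and 6.01 CPM in control rats, 5.76, 5.97 and 6.61 CPM in ethanol rats, and 5.56, 6.42 and 8.91 CPM in withdrawal rats. All 6 ethanol rats lay above the control mean and 3 lay above every control rat, and in withdrawal 4 of 6 rats lay above every control rat. The means were 5.66 ± 0.263 CPM in control, 6.03 ± 0.305 CPM in ethanol and 6.74 ± 1.27 CPM in withdrawal (SD, n = 6). Between withdrawal and control the log2 fold change was 0.25 (SE 0.098, 95% interval 0.04 to 0.45, p = 0.0222, q = 0.177 by limma-voom), and the unadjusted exact permutation p was 0.0498. Between ethanol and control it was 0.08 (limma-voom q = 0.811, SE 0.11, unadjusted exact permutation p = 0.0476). Withdrawal rat 1 was the highest, and without it the mean of withdrawal was 6.30 ± 0.774 CPM and the log2 fold change of Myd88 against control was 0.16 (q = 0.349 by limma-voom). When the 3 ethanol and 3 withdrawal rats with outlying choroid plexus markers were left out, the log2 fold change of Myd88 between withdrawal and control was 0.00 (95% interval -0.24 to 0.24, q = 0.999 by limma-voom).

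Irak1 (gene ID 363520, chromosome X, 156716469 to 156726367), the kinase recruited by MyD88, was measured most precisely, with at least 5013 counts in every rat. It ran from 151 to 174 CPM in control rats (median 167 CPM), from 150 to 184 CPM in ethanol rats (median 176 CPM) and from 163 to 182 CPM in withdrawal rats (median 167 CPM). In ethanol, 4 of 6 rats lay above every control rat, and ethanol rat 1 lay below every other rat. The fitted log2 fold change between ethanol and control was 0.12 (SE 0.033, 95% interval 0.05 to 0.19), the smallest p of that comparison among the genes (p = 0.00256, q = 0.151 by limma-voom), while the exact permutation p on log2 CPM was 0.398. Without surrogate variables the log2 fold changes of Irak1 were 0.05 for ethanol vs control and -0.02 for withdrawal vs ethanol. The value for withdrawal against ethanol was -0.10 (SE 0.035, q = 0.155 by limma-voom). Between withdrawal and control it was 0.02, and in this model the 95% interval of -0.05 to 0.08 leaves out a change of Irak1 by more than 1.06-fold. Other settings gave wider limits. The interval was -0.11 to 0.11 with the choroid plexus markers as a covariate in place of the surrogate variables. It was -0.13 to 0.07 without the rats outlying in these markers.

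**Figure D2:**
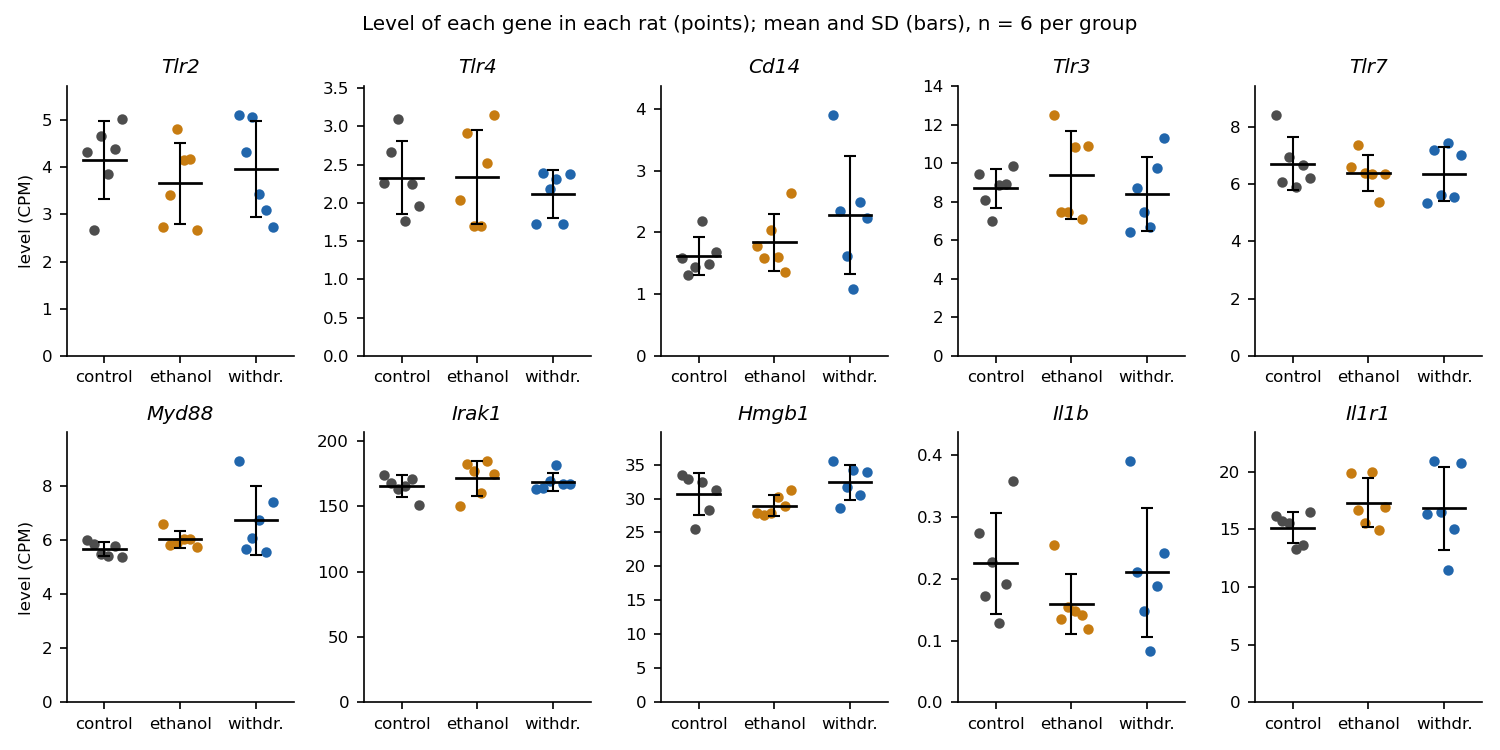
Level of each of the 10 genes (CPM, linear axis from 0) in the 6 control, 6 ethanol and 6 withdrawal rats, with 1 point per rat and the mean ± SD as bars. The groups overlap in every panel, and withdrawal rat 1, the leftmost withdrawal point, is the highest of all rats for Tlr2, Cd14, Myd88, Hmgb1 and Il1b.

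The ligand Hmgb1 (gene ID 25459, chromosome 12, 7082529 to 7090246) was not DE. It ran from 25.5 to 33.5 CPM in control rats (median 31.9 CPM), from 27.5 to 31.3 CPM in ethanol rats (median 28.4 CPM) and from 28.6 to 35.5 CPM in withdrawal rats (median 32.8 CPM). In withdrawal, 4 of 6 rats lay above every ethanol rat. The log2 fold change between withdrawal and ethanol was 0.16 (SE 0.081, 95% interval -0.01 to 0.33, p = 0.0613, q = 0.324 by limma-voom), and the unadjusted exact permutation p was 0.0195, the smallest of the 30. Against control it was 0.09 in withdrawal (q = 0.502 by limma-voom) and -0.07 in ethanol (q = 0.765). Hmgb1 has many near-identical copies in the rat genome, of which 17 were listed in the count tables and 4 had at least 100 counts over all rats. The largest of them, Hmgb1-ps8, had 6871 counts against 19988 for Hmgb1. Pairs with more than 1 mapping place were left out of the counts, so the level of Hmgb1 is uncertain, and reads of Hmgb1 may be listed under its copies. Hmgb1-ps8 lay between 9.62 and 10.7 CPM in control rats and between 10.1 and 14.0 CPM in withdrawal rats, and it was not DE (log2 fold change 0.17, limma-voom q = 0.209, SE 0.075). Another copy, Hmgb1l5, with 1329 counts over all rats, had log2 fold changes of -0.37 for withdrawal vs control (q = 0.293 by limma-voom) and -0.86 for ethanol vs control (q = 0.134), neither past the threshold. Hmgb1-ps3, with 464 counts, had fold changes of the other sign in the same comparisons, 0.16 (q = 0.784 by limma-voom) and 0.55 (q = 0.417), also not past it.

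Il1b (gene ID 24494, chromosome 3, 121876256 to 121882637) was near the limit of detection, with 3 to 13 counts per rat. Its counts summed to 48 in the control rats, 34 in the ethanol rats and 47 in the withdrawal rats. Its levels ran from 0.128 to 0.358 CPM in control rats (median 0.210 CPM), from 0.119 to 0.255 CPM in ethanol rats (median 0.145 CPM) and from 0.0837 to 0.390 CPM in withdrawal rats (median 0.200 CPM), and the groups overlapped. Exact permutation tests on log2 CPM gave p = 0.682 for withdrawal vs control, 0.104 for ethanol vs control and 0.377 for withdrawal vs ethanol. The spread among control rats was that of counting, 36.3% observed against 35.4% from the counts alone. When no filter on low counts was set, limma-voom with 3 surrogate variables gave Il1b a log2 fold change of -0.72 for ethanol vs control (95% interval -1.32 to -0.12, q = 0.430), 0.67 for withdrawal vs ethanol (q = 0.371) and -0.05 for withdrawal vs control (q = 0.951). The first 2 had an unadjusted p under 0.05, and none of the 3 passed the threshold.

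Il1r1 (gene ID 25663, chromosome 9, 46962291 to 47038139), the signaling receptor of IL-1, came closest to the threshold. It ran from 13.3 to 16.5 CPM in control rats (median 15.6 CPM), from 15.0 to 20.005 CPM in ethanol rats (median 16.8 CPM) and from 11.4 to 20.9 CPM in withdrawal rats (median 16.4 CPM). Withdrawal held the highest and the lowest rat of all, rats 2 and 4, and in ethanol 4 of 6 rats lay above every control rat. The fitted log2 fold change between withdrawal and control was 0.22 (SE 0.068, 95% interval 0.07 to 0.36, p = 0.00561, q = 0.102 by limma-voom), whereas the difference in mean log2 CPM was 0.13 (exact permutation p = 0.383). Without surrogate variables the log2 fold change was 0.14 (SE 0.13, q = 0.719). Between withdrawal and ethanol the fitted change was 0.17 (limma-voom q = 0.271, SE 0.076), but -0.06 without surrogate variables (q = 0.845), so the direction of that comparison depended on them. Of the 4 rats with the highest Il1r1, 3 were also among the 4 with the highest choroid plexus markers, and withdrawal rat 4, with choroid plexus markers at 27.5 CPM, had the lowest Il1r1.

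With the choroid plexus markers as a covariate in place of the surrogate variables, the log2 fold change of Il1r1 between withdrawal and control was 0.27 (SE 0.09, q = 0.268 by limma-voom). With the 6 rats outlying in these markers left out it was 0.39 (SE 0.098, q = 0.357 by limma-voom), and of 17522 genes then tested 5 were DE. Neither setting, added after the data were seen, made any of the 9 genes DE. The part of choroid plexus RNA in the values of Tlr3 and Il1r1 was not tested beyond these settings.

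**Figure D3:**
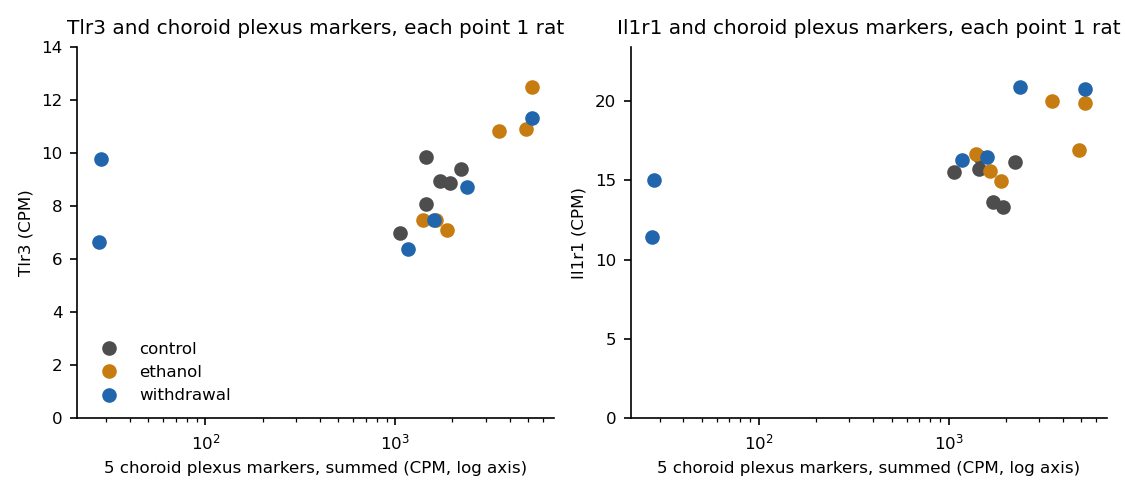
Tlr3 and Il1r1 (CPM, linear axis from 0) against the summed level of 5 choroid plexus markers (CPM, log axis), with 1 point per rat coloured by group. The 4 rats above 3000 CPM of markers hold the 4 highest values of Tlr3 and 3 of the 4 highest of Il1r1, and 2 withdrawal rats lie near 28 CPM of markers.

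**Figure D4:**
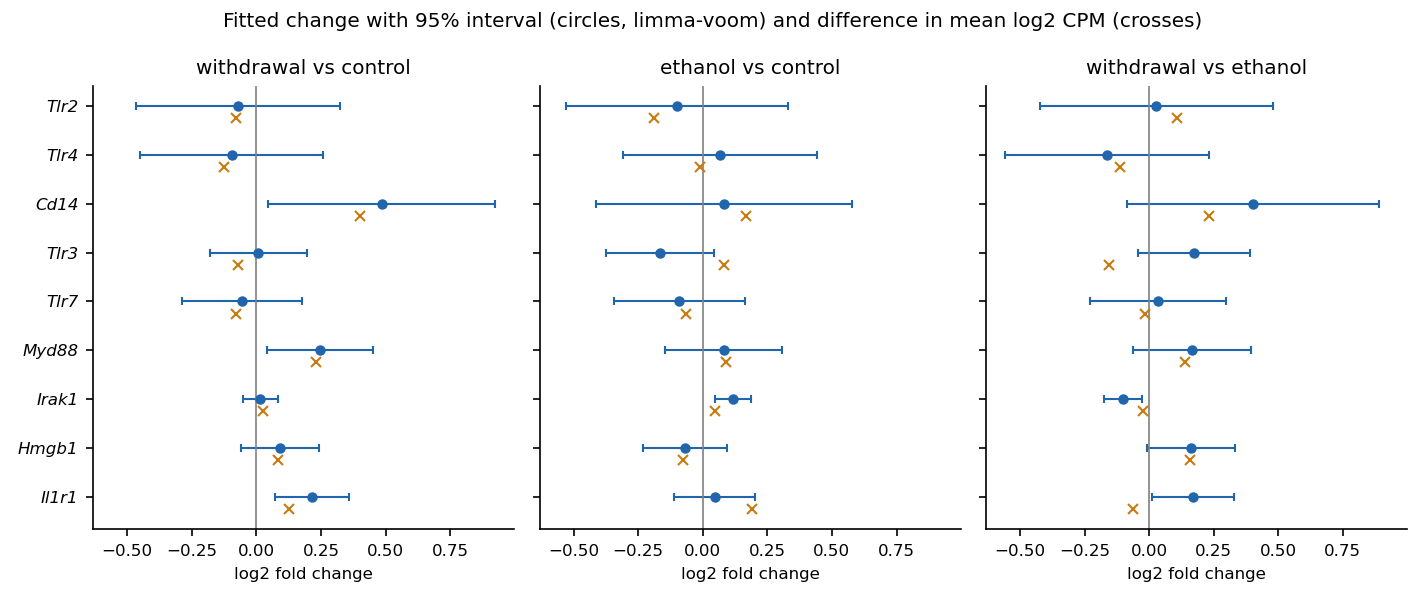
Log2 fold changes of the 9 tested genes in the 3 comparisons, fitted by limma-voom with 3 surrogate variables (circles with 95% intervals), and differences in mean log2 CPM with no surrogate variables (crosses). The largest fitted change is 0.48 for Cd14 between withdrawal and control, and circle and cross lie on opposite sides of 0 for Tlr3 in each comparison, for Tlr4 between ethanol and control, and for Tlr7 and Il1r1 between withdrawal and ethanol.

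Withdrawal rat 1 was the highest of the 18 rats for 5 of the 10 genes, namely Tlr2, Cd14, Myd88, Hmgb1 and Il1b, and the lowest for Tlr3 and Tlr7. It also had the highest summed endothelial markers (401 CPM, against 273 to 325 CPM in control rats), while its microglial markers, 330 CPM, lay inside the control range. Summed endothelial markers were higher in withdrawal (log2 difference 0.19, exact permutation p = 0.0476) and in ethanol (0.14, p = 0.0390, exact permutation) than in control before adjustment. Pecam1, Flt1 and Vwf, 3 of the 5, were DE between withdrawal and control and higher in withdrawal (against 2.85% of all genes higher). Slco1a4 of the same list had a lower mean in withdrawal than in control (74.1 against 76.5 CPM). Astrocyte markers were lower in ethanol than in control (log2 difference -0.16, exact permutation p = 0.0476) before adjustment, and for withdrawal against ethanol their difference was 0.30 (exact permutation p = 0.0519). The members did not move together, and Gfap had means of 797 CPM in ethanol and 1326 CPM in withdrawal while Aldh1l1 had 26.3 and 23.04 CPM. Of the 6 astrocyte markers 3 were DE between withdrawal and control (against 5.41% of all genes), with Gfap higher and Aldh1l1 and Gja1 lower in withdrawal. Red blood cell markers were lower in both ethanol and withdrawal than in control, with 3 of 3 DE in either comparison. Of all genes, 0.157% were DE and lower in ethanol and 2.55% in withdrawal. The part of these cell type markers in the values of the 10 genes is taken up next. It was not tested. Index sequences tagging the libraries came from 3 sets, 1 for all 6 control rats, 1 for all 6 ethanol rats and withdrawal rats 1 and 2, and 1 for the other 4 withdrawal rats. The index set and the group cannot be told apart in any comparison with control.

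The rest of the pathway was read from 79 further genes in 8 lists, of which 66 were tested. Between withdrawal and control, 6 of the 66 were DE (9.09%, against 5.41% of all genes), 4 higher and 2 lower in withdrawal, where 2.85% of all genes were higher and 2.55% lower. Between ethanol and control 1 was DE and higher in ethanol (1.52%, against 0.336% of all genes higher). Between withdrawal and ethanol 2 were DE, both higher in withdrawal (3.03%, against 1.23% of all genes higher and 1.49% lower). Of the 66, Ccl2 and Ccl3 passed the filter on low values only through withdrawal rats, and without them 5 of 64 genes were DE between withdrawal and control (7.81%) and 1 of 64 between withdrawal and ethanol (1.56%). The median log2 fold change of the 66 genes was 0.05, -0.01 and 0.04 in the 3 comparisons. None of the 5 tested other Toll-like receptors, 8 receptor partners and 18 adaptors, kinases and ubiquitin ligases was DE in any comparison. Tab3, which links ubiquitin chains to the kinase TAK1 and is named here after its values were seen, was the 1 gene of these lists whose groups did not overlap. Among all genes tested, such separation was found for 1.06% (withdrawal with control) and 1.32% (ethanol with control). Tab3 was picked for its separation, so its exact permutation p is a description only. It ran from 34.3 to 36.7 CPM in control rats, from 31.1 to 34.2 CPM in ethanol rats and from 32.2 to 34.003 CPM in withdrawal rats, so that the control rats were the 6 highest (exact permutation p = 0.00216 in either comparison, unadjusted). Its log2 fold change was -0.11 against control in both withdrawal (q = 0.104 by limma-voom) and ethanol (q = 0.235). In these lists the largest log2 fold changes between withdrawal and control were -0.29 for Tlr9, a receptor of unmethylated DNA (SE 0.28, q = 0.599), 0.20 for Lbp, the lipopolysaccharide binding protein (SE 0.27, q = 0.722), and -0.32 for Ikbke, an I-kappaB kinase relative (SE 0.15, q = 0.245, all by limma-voom).

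**Figure D5:**
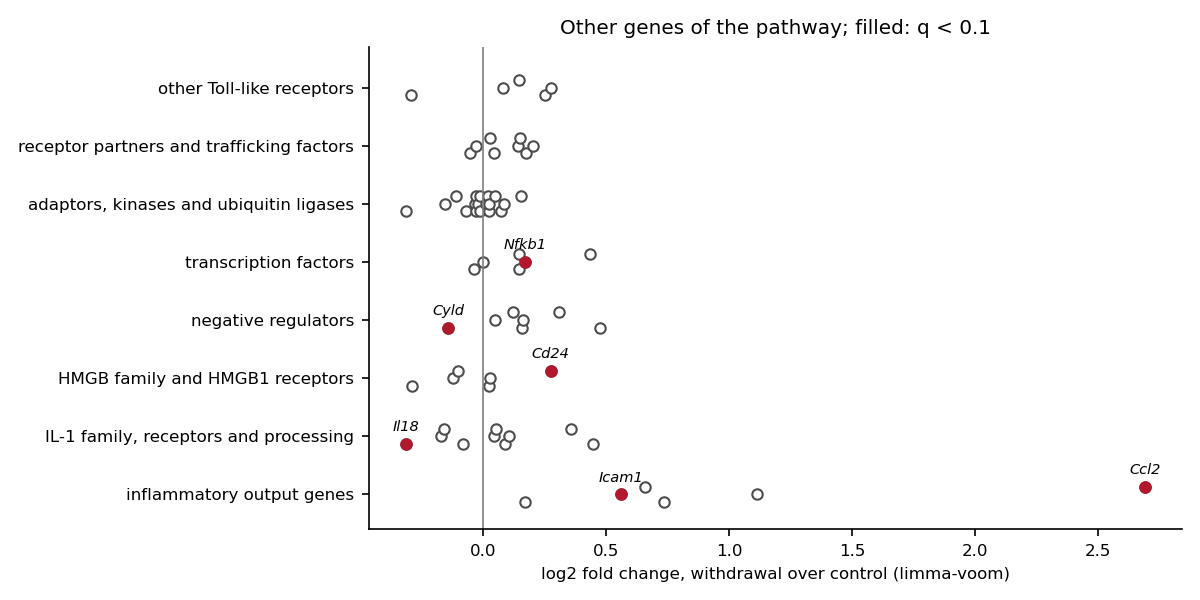
Log2 fold changes between withdrawal and control (limma-voom) of the 66 other tested genes, in 1 row for each of 8 lists, with DE genes filled and named. The 6 DE genes lie in the lower 5 rows. Ccl2 stands farthest out at 2.69, but it passed the filter on low values only through 3 withdrawal rats, so its q is no test of its difference.

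Downstream of the receptors, single genes of the lists were DE. Of the 6 transcription factors, 1 was DE between withdrawal and control (against 5.41% of all genes) and 1 between withdrawal and ethanol (against 2.72%). Among the 6 transcription factors, Nfkb1 (chromosome 2, 240773520 to 240890053), a subunit of NF-kappaB, was higher in withdrawal than in control (log2 fold change 0.17, limma-voom q = 0.0736, SE 0.048). Its level ran from 29.9 to 33.03 CPM in control rats (median 30.8 CPM) and from 31.1 to 42.4 CPM in withdrawal rats (median 34.4 CPM), with 5 of 6 withdrawal rats above every control rat. The interferon regulator Irf7 (chromosome 1, 214249388 to 214252909), which acts below TLR7 and TLR9, was higher in withdrawal than in ethanol (log2 fold change 1.32, limma-voom q = 0.0883, SE 0.36). Irf7 ran from 1.45 to 5.62 CPM in ethanol rats (median 2.71 CPM), from 4.58 to 17.1 CPM in withdrawal rats (median 6.31 CPM) and from 2.502 to 7.24 CPM in control rats (median 5.76 CPM). Ethanol rats were thus the low group for Irf7, and against control neither ethanol (-0.89, q = 0.317 by limma-voom) nor withdrawal (0.43, q = 0.397) passed the threshold.

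Of the 7 negative regulators, 1 was DE between withdrawal and control, against 5.41% of all genes. Cyld (chromosome 19, 19264984 to 19323817), a deubiquitinase that restrains NF-kappaB, was lower in withdrawal than in control (log2 fold change -0.14, limma-voom q = 0.0968, SE 0.045), at 72.7 to 90.1 CPM against 83.1 to 99.6 CPM. The call of Cyld held in 5 of 18 models that each left out 1 rat. Nfkbia, which encodes the NF-kappaB inhibitor I-kappaB alpha, had the largest fold change of the list without passing the threshold (0.47, limma-voom q = 0.111, SE 0.16). It ran from 15.4 to 27.04 CPM in control rats and from 20.9 to 37.7 CPM in withdrawal rats, and 5 of 6 withdrawal rats lay above every control rat.

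Among the HMGB family and the receptors and partners of HMGB1, 1 of 6 tested genes was DE between withdrawal and control (against 5.41% of all genes) and the same gene between ethanol and control (against 0.493%). Cd24 (chromosome 20, 48335540 to 48340847), a surface glycoprotein that binds HMGB1, was higher in withdrawal (log2 fold change 0.27, limma-voom q = 0.0203, SE 0.052) and in ethanol (0.38, SE 0.055, q = 0.0359) than in control. Its levels overlapped widely, from 41.9 to 59.1 CPM in control rats, from 43.9 to 95.3 CPM in ethanol rats and from 33.5 to 72.8 CPM in withdrawal rats. The exact permutation p of Cd24 was 0.359 for withdrawal and 0.186 for ethanol against control, and without surrogate variables q was 0.738 and 0.645 by limma-voom. Cxcl12, a chemokine that forms a complex with HMGB1, had a log2 fold change of -0.29 between withdrawal and control (limma-voom q = 0.156, SE 0.11).

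Of the IL-1 family and its processing, 1 of 10 tested genes was DE between withdrawal and control, against 5.41% of all genes, and 0 of 10 in the other comparisons. Il18 (chromosome 8, 55009666 to 55016286), an IL-1 family cytokine, was lower in withdrawal than in control (log2 fold change -0.31, limma-voom q = 0.0611, SE 0.084). It ran from 5.07 to 6.84 CPM in control rats (median 5.43 CPM) and from 3.79 to 5.205 CPM in withdrawal rats (median 4.41 CPM), with 5 of 6 withdrawal rats below every control rat. Pycard, the inflammasome adaptor ASC, had a log2 fold change of 0.45 in the same comparison (limma-voom q = 0.112, SE 0.15).

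Of 10 inflammatory output genes 6 were tested, and Icam1 was DE and higher in withdrawal than in control (against 2.85% of all genes higher). Ccl2 exceeded the filter of 0.5 CPM in 3 withdrawal rats and Ccl3 in 1, and neither did so in any control or ethanol rat, so their entry into the test already required high withdrawal values. The q of Ccl2, counted above among the DE genes, is therefore no test of its difference, and its values are a description. Withdrawal rat 1 was the highest withdrawal rat for Ccl2, Ccl3, Ptgs2 and Icam1. In Ptgs2, the prostaglandin synthase COX-2, it had 119 CPM against a withdrawal median of 27.6 CPM, and this gene was not DE. The chemokine gene Ccl2 had 1 to 10 counts in control rats, 4 to 6 in ethanol rats and 10 to 153 in withdrawal rats, and its level spanned 0.235 to 4.98 CPM in withdrawal rats (median 0.462 CPM). The fitted log2 fold change of Ccl2 was 2.69 against control and 2.47 against ethanol, and all 6 withdrawal rats lay above all ethanol rats. Withdrawal rat 1 was the highest, and without it the log2 fold change of Ccl2 against control was 2.14. The adhesion molecule gene Icam1 ran from 3.53 to 4.76 CPM in control rats and from 4.88 to 12.003 CPM in withdrawal, with all 6 withdrawal rats above all control rats (log2 fold change 0.56, limma-voom q = 0.0784, SE 0.16). All 6 ethanol rats, at 4.96 to 6.36 CPM, also lay above all control rats, although Icam1 was not DE there (0.41, q = 0.354 by limma-voom). Groups did not overlap for 1.06%, 1.32% and 1.22% of all genes tested (withdrawal with control, ethanol with control, withdrawal with ethanol). Without withdrawal rat 1 the log2 fold change of Icam1 between withdrawal and control was 0.37 (q = 0.0727 by limma-voom). The summed endothelial markers were also higher in both groups than in control and highest in withdrawal rat 1, and their part in the values of Icam1 was not tested. Of the genes below the filter, Il6 and Ccl4 had means of at most 0.120 CPM in every group, and Nos2 lay lower still. Tnf was listed at 0 in all 18 rats, and a 0 in these counts need not mean low expression, since the collagen gene Col1a2 was also at 0 in all rats while Col1a1 lay between 15.1 and 341 CPM.

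The calls of these downstream genes depended on the surrogate variables and on single rats. Ccl2 is left out of these checks, since it passed the filter through withdrawal rats alone. Without surrogate variables none of the other 5 genes called between withdrawal and control was DE, with q between 0.261 for Icam1 and 0.738 for Cd24 (limma-voom). Their log2 fold changes kept their direction and were 0.51 for Icam1, 0.18 for Nfkb1, 0.19 for Cd24, -0.33 for Il18 and -0.17 for Cyld. When withdrawal rat 6 was left out, none of the 5 was DE in that comparison either (q between 0.114 for Cd24 and 0.352 for Cyld), and 23 of all genes were. The log2 fold changes were then 0.60 for Icam1, 0.18 for Nfkb1, 0.27 for Cd24, -0.26 for Il18 and -0.11 for Cyld. Without withdrawal rat 1, q was 0.157 for Nfkb1 and 0.148 for Cyld, and Cd24, Il18 and Icam1 remained DE. In models that each left out 1 of the 18 rats, Cd24 was called in 17, Il18 in 14, Icam1 in 12 and Nfkb1 in 11 of 18 against control. Irf7 was called between withdrawal and ethanol in 11 of 18 and also without surrogate variables (q = 0.0856), but not without withdrawal rat 6 (q = 0.393).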

How the data were processed

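RNA-Seq of 18 dorsal hippocampi was analysed from the deposited raw counts per gene. The authors aligned paired reads from stranded mRNA libraries with STAR 2.5.2a to Rnor_6.0 (NCBI annotation 106), and featureCounts 1.5.0 counted read pairs on exons by strand, without pairs that mapped to several places. RNA integrity numbers were all above 8 per the labels. Groups and replicate numbers were taken from the labels. Of 38445 identifiers, 29322 were matched to a symbol in RefSeq's GRCr8 table, which was used for names and promoters only.

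Counts were scaled by TMM (edgeR 4.0.16), and genes above 0.5 CPM in at least 1 rat were tested by limma-voom (limma 3.58.1, R 4.3.3) in 1 model of all 3 groups with 3 surrogate variables (sva 3.50.0, log2 CPM with prior count 2) and Benjamini-Hochberg adjustment (q) within each comparison. RPKM was CPM per 1000 bases of exon. The study's text does not state the number of surrogate variables, and 3 was taken over from an earlier analysis. Single values were compared by two-sided exact permutation tests of log2 CPM. Tested on simulated counts for withdrawal vs control, with 200 of 17582 genes changed 2-fold, 172 were recovered with 15 false calls. The simulated rats were drawn independently and had no differences in tissue markers, unlike the real rats. The largest fitted log2 fold change of the 9 genes was 0.48, and recovery of changes below 2-fold was not tested. Genes and lists were chosen with earlier results of these data known. All 10 genes are named, and of the other lists the DE genes and otherwise the gene with the largest log2 fold change between withdrawal and control. Alternatives were other numbers of surrogate variables, edgeR's quasi-likelihood test, DESeq2 1.42.0, sample weights, scalings, filters, q < 0.05, the compared groups only, the replicate number as a block, leaving out each rat, and, added after the data were seen, 2 settings on choroid plexus markers. Same-numbered rats are different animals. Their deviations from the group means correlated between -0.32 and 0.38. The paper states that rats were pair fed, and the labels name no feeding partners. A pairing by number can therefore be neither shown nor excluded from these correlations. Between rats of a group the chi-square per degree of freedom was at least 5.74, so no pair of libraries within a group differed by counting error alone. Pairs from different groups were not compared in this way.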

Additional observations from a re-analysis of the deposited data

Results flagged for a closer look

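In 3 of 30 groups of 6 rats the highest rat stood far from the nearest other rat of its group, by more than Dixon's 95% limit for the gap over the range. Chance flags about 1 in 20 groups. Ethanol rat 1 had 6.61 CPM of Myd88, with the nearest ethanol rat at 6.05 CPM. The same rat had 0.255 CPM of Il1b against 0.155 CPM in the nearest, a difference of few counts. Withdrawal rat 4 had 182 CPM of Irak1, with the nearest withdrawal rat at 169 CPM.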

How the results depend on the processing

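Most settings called none of the 9 tested genes. Between withdrawal and control 1 gene, Il1r1, was called with 5 surrogate variables, DESeq2, sample quality weights, or the replicate block with 3 surrogate variables (q = 0.0887, 0.0602, 0.0695 and 0.0971). Over all genes, these 4 settings called 262, 1624, 1132 and 941 in that comparison, in place of 965. Irak1 was the 1 gene called between ethanol and control with DESeq2 or sample quality weights (q = 0.0354 and 0.0807) and the 1 called between withdrawal and ethanol with DESeq2 (q = 0.0692). Of all genes, DESeq2 and sample quality weights called 473 and 440 between ethanol and control, in place of 88. Between withdrawal and ethanol DESeq2 called 1176 of all genes, in place of 486. With single rats omitted, 0 to 1 genes were called between withdrawal and control and 0 in the other comparisons. The gene was Il1r1 without ethanol rat 1, 2, 3 or 4 or withdrawal rat 1, 3 or 4 (lowest q = 0.0554) and Myd88 without withdrawal rat 2 (q = 0.0669). With upper quartile scaling 1 of 30 exact permutation tests, in place of 3, had a p under 0.05. Over all genes, 965 were DE between withdrawal and control, 23 to 1911 with 1 rat omitted (withdrawal rats 6 and 2), 41 without surrogate variables, 1030 with edgeR, 1624 with DESeq2, and 941 and 0 with the replicate block with and without surrogate variables. The replicate block changed no call of the 9 genes other than that of Il1r1.

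Counted over genes, comparisons and settings, 80 log2 fold changes of the 9 genes had the opposite sign, and none of these was called. Tlr2 between withdrawal and control was 0.0038 with 5 surrogate variables, 0.30 without the rats outlying in choroid plexus markers and -0.22 to 0.15 with 1 rat omitted. Between ethanol and control Tlr2 was 0.071 with the compared groups only, 0.085 without the outlying rats and -0.20 to 0.035 with 1 rat omitted, and between withdrawal and ethanol -0.031 with the compared groups only and -0.13 to 0.33 with 1 rat omitted. Tlr3 between withdrawal and control was -0.051, -0.042, -0.018 and -0.011 with 0, 1, 4 and 5 surrogate variables, -0.0073 and -0.049 with edgeR and -0.0066 and -0.050 with DESeq2 (3 and 0 surrogate variables), -0.0084 with sample weights, -0.0036 with upper quartile, -0.0098 with no filter, -0.021 with the compared groups only, -0.052 with the block alone and -0.076 to 0.064 with 1 rat omitted. Tlr3 between ethanol and control was 0.093 and 0.091 with 0 and 1 surrogate variables, 0.11 with edgeR, 0.11 with DESeq2 and 0.095 with the block (each without surrogate variables), and 0.053 with the choroid plexus covariate, and between withdrawal and ethanol it was, in the same order, -0.14, -0.13, -0.16, -0.16, -0.15 and -0.026. Tlr4 between ethanol and control was -0.026 and -0.026 with 0 and 1 surrogate variables, -0.0017 with DESeq2 and -0.0065 with the block (both without surrogate variables), -0.039 with the covariate, -0.033 without the outlying rats and -0.062 to 0.16 with 1 rat omitted. Between withdrawal and control Tlr4 was -0.17 to 0.014 with 1 rat omitted. Tlr7 between withdrawal and control was 0.082 with 5 surrogate variables, 0.029 without the outlying rats and -0.10 to 0.0078 with 1 rat omitted, and between ethanol and control -0.20 to 0.021 with 1 rat omitted. Between withdrawal and ethanol Tlr7 was -0.010, -0.0086, -0.0071 and -0.010 without surrogate variables in limma-voom, edgeR, DESeq2 and the block, -0.0094 with the block and 3 surrogate variables, and -0.069 to 0.16 with 1 rat omitted. Cd14 between ethanol and control was -0.016 with 5 surrogate variables and -0.052 to 0.22 with 1 rat omitted. Irak1 between withdrawal and control was -0.0049 with upper quartile, -0.032 without the outlying rats and -0.0088 to 0.033 with 1 rat omitted. Without the outlying rats Hmgb1 was -0.061 between withdrawal and control and Myd88 -0.012 between withdrawal and ethanol. Il1r1 between withdrawal and ethanol was -0.056 and -0.045 with 0 and 1 surrogate variables, and -0.042, -0.041 and -0.045 with edgeR, DESeq2 and the block without them. With only the withdrawal rats that share the ethanol rats' index set, withdrawal rats 1 and 2, the difference in mean log2 CPM against ethanol was 0.74 in place of 0.23 for Cd14 and 0.71 in place of 0.25 for Il1b, and withdrawal rat 1 was the highest rat for both. The causes were not tested. Depth limits Il1b, with 3 to 13 counts per rat.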
